A study of Mus musculus with 15 samples.

Results

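The 7 genes described here encode the killing machinery of cytotoxic lymphocytes: the granzymes Gzma, Gzmb and Gzmk, the pore-forming protein perforin (Prf1), the granule proteins cathepsin W (Ctsw) and Nkg7, and the receptor subunit CD94 (Klrd1). They were taken by symbol from a table of 38172 gene symbols, with no filter on level, and all 7 were found. The samples were 15 brain tumours from a mouse model of IDH-mutant low-grade glioma, in which nestin-TVA mice received a 1:1 mixture of DF-1 chicken cells, one part carrying R132H-mutant IDH and the other PDGFB. Every group carried this IDH-mutant genotype, and there was no tumour-free or IDH wild-type group. Tumours were imaged on day 28, treatment by intraperitoneal injection then ran for 9 days, and tumours were collected on day 37.

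The control group (n = 3) received vehicle daily. The anti-PD1 group (n = 4) received 1 mg of antibody against the T cell inhibitory receptor PD-1 in 100 µl, given on 2 days a week. The vorinostat group (n = 4) received 1 mg of this histone deacetylase inhibitor in 100 µl daily, and the combination group (n = 4) received both agents. The labels do not give the age of the mice, nor whether the anti-PD1 group also received the vorinostat vehicle. Nor do they state that each replicate was its own mouse, so p-values here reflect only the scatter between these samples, part of which may be technical. Olig2, a gene of gliomas and the oligodendrocyte lineage, averaged 862 ± 230 TPM (SD, n = 3) in controls. It averaged 542.5 ± 255 TPM with anti-PD1, 997 ± 546 TPM with vorinostat and 710 ± 323 TPM with the combination (SD, n = 4 each). Its part in the granule gene values was not tested. Recovered reads came to between 80.0 M (megareads) and 159.3 M per library.

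Cytotoxic T cells and natural killer (NK) cells kill by releasing granules onto a target cell. Perforin opens the target's membrane, and granzymes, which are serine proteases, then enter and cleave proteins that trigger cell death. Granzyme B is the granzyme best known for activating caspases, and resting memory T cells typically carry little of it until they are activated. Granzyme A is a tryptase abundant in NK cells and effector T cells, and granzyme K is typical of a memory-like subset of CD8 T cells. Nkg7 takes part in granule release, cathepsin W is a protease of cytotoxic lymphocytes, and CD94 pairs with NKG2 proteins to form receptors for a non-classical MHC molecule.

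The transcription start regions of Gzmb, Gzma, Prf1 and Nkg7 are shown because these genes cover both the clearest and the less clear separations between treatments described below. Each is 300 bases of the coding strand, from 250 bases before to 50 after the annotated start, from RefSeq on GRCm38.p6. RefSeq start regions were matched for 5 of the 7 genes, and that of Gzmk is not printed. The windows are chr14:56262285-56262584 on the minus strand for Gzmb, chr13:113100932-113101231 on the minus strand for Gzma, chr10:61297586-61297885 on the plus strand for Prf1 and chr7:43436888-43437187 on the plus strand for Nkg7. Capitals mark matches, on either strand, to 5 short motifs of factor families known in lymphocytes.
Gzmb: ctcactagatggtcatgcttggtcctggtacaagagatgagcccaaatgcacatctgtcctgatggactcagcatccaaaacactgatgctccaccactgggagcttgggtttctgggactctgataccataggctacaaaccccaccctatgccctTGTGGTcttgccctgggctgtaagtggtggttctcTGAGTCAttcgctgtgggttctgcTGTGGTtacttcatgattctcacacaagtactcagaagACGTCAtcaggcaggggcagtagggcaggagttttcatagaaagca
Gzma: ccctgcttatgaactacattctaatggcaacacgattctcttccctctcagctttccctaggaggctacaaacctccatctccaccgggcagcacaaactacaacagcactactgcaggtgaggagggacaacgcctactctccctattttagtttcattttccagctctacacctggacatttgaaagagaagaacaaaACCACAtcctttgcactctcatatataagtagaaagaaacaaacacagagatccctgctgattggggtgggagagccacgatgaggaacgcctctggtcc
Prf1: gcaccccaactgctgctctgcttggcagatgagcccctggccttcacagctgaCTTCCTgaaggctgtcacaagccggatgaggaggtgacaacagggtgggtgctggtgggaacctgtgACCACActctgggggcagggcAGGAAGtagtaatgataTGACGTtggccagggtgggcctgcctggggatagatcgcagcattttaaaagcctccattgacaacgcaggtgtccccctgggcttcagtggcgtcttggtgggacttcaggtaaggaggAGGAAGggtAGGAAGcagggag
Nkg7: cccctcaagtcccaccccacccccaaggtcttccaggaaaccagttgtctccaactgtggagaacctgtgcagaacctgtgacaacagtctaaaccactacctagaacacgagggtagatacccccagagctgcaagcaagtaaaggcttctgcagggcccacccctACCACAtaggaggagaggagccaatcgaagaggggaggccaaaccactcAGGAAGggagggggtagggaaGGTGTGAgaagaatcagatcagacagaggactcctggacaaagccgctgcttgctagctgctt

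The motifs were the RUNX motif TGTGGT, the ETS motif AGGAAG, the T-box motif GGTGTGA, the AP-1 motif TGANTCA and the cyclic AMP response motif ACGTCA, and none of the marked matches overlap. They were chosen with the sequences in view. The Gzmb window held 2 RUNX matches, 1 AP-1 match and 1 cyclic AMP response match, and the Gzma window held 1 RUNX match and no other. The Prf1 window held 4 ETS matches, 1 RUNX match and 1 cyclic AMP response match, while the Nkg7 window held 1 match each to RUNX, ETS and T-box. Among all 32851 windows of this length, 16.8% held the RUNX motif, 35.4% the ETS motif, 3.98% the T-box motif, 7.81% the AP-1 motif and 7.51% the cyclic AMP response motif. These are matches of letters and not measured binding sites.

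All levels below are TPM (transcript abundance relative to the library total) as deposited, and the TPM were scaled to the whole gene span, introns included. A gene with long introns therefore has a low TPM for its reads. Gzmk shows this most, with a span of 54301 bases that is 39.1 times its exon length, against 2.38 times for Gzmb. For all 7 genes, each TPM times the gene span was close to a whole multiple of 1 factor per library. That factor was estimated from the values themselves, and the multiples were taken as reads. The smallest count above 0 among the 7 genes was 3, so a recovered 0 may not mean that no read was present. Below, no read means a recovered count of 0. The 7 genes were sparse, with between 135 reads for Gzmk and 1692 reads for Ctsw over all 15 libraries. Scaled to exon length and depth (RPKM), the mean over 15 libraries was 0.574 for Ctsw, 0.364 for Nkg7, 0.183 for Gzmb, 0.139 for Klrd1, 0.115 for Gzma, 0.0681 for Gzmk and 0.0544 for Prf1. In these bulk samples, fewer cells of a type and less RNA per cell cannot be told apart.

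**Figure D1:**
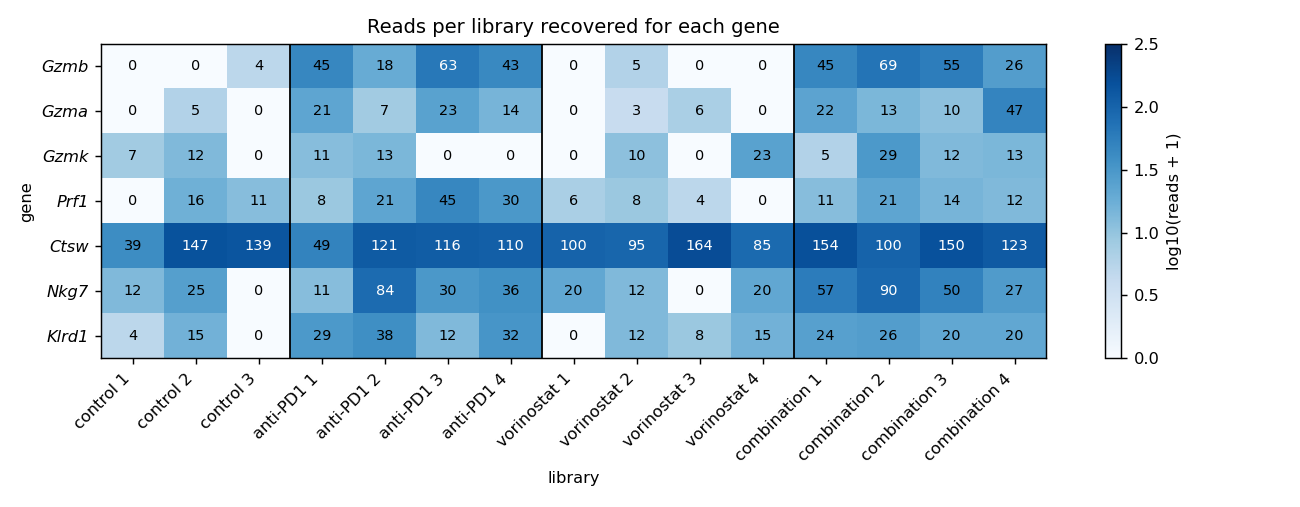
Whole reads recovered for each of the 7 genes (rows) in each of the 15 libraries (columns, by treatment group), with the colour on a log10(reads + 1) scale. Gzmb had 18 to 69 reads in each library with anti-PD1 and at most 5 in each library without it, while Ctsw had at least 39 reads in every library.

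Granzyme B was the gene that separated the treatments most clearly. Gzmb lies on chr14:56258838-56262260, minus strand (mm10, GENCODE vM21), and is a protein-coding gene with no overlapping neighbour. The RefSeq start region printed above lies wholly upstream of this span, so RefSeq and GENCODE place the start differently. Gzmb was at 0, 0 and 0.0609 TPM in the 3 controls. With anti-PD1 it was at 1.22, 0.425, 1.57 and 1.10 TPM. With vorinostat it was at 0, 0.116, 0 and 0 TPM, and with the combination at 0.970, 1.98, 1.24 and 0.604 TPM. Every library with anti-PD1 lay above every library without it, and no library with vorinostat alone reached the lowest anti-PD1 value.

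In counts of reads, Gzmb had 4 reads in 348.1 M over the controls and 169 in 366.8 M over the anti-PD1 group. That is a ratio of 40.1 per read sequenced, with an exact 95% interval of 15.4 to 149. The combination group had 195 reads in 402.7 M, 42.1 times the control (16.2 to 156). These intervals cover counting error only and not the spread between tumours. If a recovered 0 means no read, such a library still allows a Gzmb level of up to 0.0815 TPM. That is the value of 3 reads in control 1, where this limit was highest.

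The changes were tested with limma on log2(TPM + 1) over all 38172 symbols, with Benjamini-Hochberg adjustment and a threshold of 0.05. On this scale the changes of low genes are understated. Gzmb rose by 1.00 (SE 0.20, adjusted p = 0.0474) with anti-PD1 against control, the one gene of the 7 to do so, in a comparison where 0.288% of all symbols were called higher. The adjusted p lay between 0.0284 and 0.129 when single libraries were left out, and the call held only without anti-PD1 2, anti-PD1 3, combination 2 or combination 4. It was 0.122 with the 2 groups fitted alone and 0.176 with the mean of neuronal genes as a covariate.

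Averaged over both backgrounds, without and with vorinostat, Gzmb rose by 1.03 with anti-PD1 (SE 0.14, adjusted p = 0.0164 by limma), which ranked 15 of 38172 by p. In this average effect 0.0812% of symbols were called higher. This call held under each of the 22 alternatives run, with adjusted p between 0.00144 and 0.0469. Among these, the filters on low values kept Gzmb only through libraries with anti-PD1, so they are no separate support. Without anti-PD1 it was at 0 in 5 of 7 libraries and at most 0.116 TPM. All 8 libraries with anti-PD1 lay above all 7 without for 0.113% of symbols, and Gzmb and Gzma were among these.

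Granzyme A followed the same order of groups at a lower level. Gzma lies on chr13:113093825-113100981, minus strand, and is protein-coding. Controls were at 0, 0.0579 and 0 TPM, and the anti-PD1 libraries at 0.273, 0.0791, 0.273 and 0.172 TPM. With vorinostat it was at 0, 0.0333, 0.0584 and 0 TPM, and with the combination at 0.227, 0.179, 0.108 and 0.522 TPM. The lowest library with anti-PD1 had 7 reads and the highest without had 6, so the groups did not overlap but lay close. Over all libraries Gzma had 157 reads with anti-PD1 and 14 without, a ratio of 11.5 per read sequenced (6.67 to 21.6, counting error only).

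On log2(TPM + 1), the average anti-PD1 change of Gzma was 0.26 (SE 0.06, adjusted p = 0.102 by limma), which did not pass. On the recovered reads with limma's voom, which weights each value by its expected precision, Gzma passed with an adjusted p of 0.0460 and a fitted change of 3.92 (SE 0.68) on the log2 CPM scale. That fitted change depends on the small number added to counts of 0. Gzmb passed there too, at 5.70 (SE 0.58, adjusted p = 0.00250), in a test that called 0.105% of 36035 symbols higher.

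The mix of the granzymes differed between libraries. Gzma made up 24.6% to 31.8% of the Gzma and Gzmb reads in the 4 anti-PD1 libraries. In the combination group it made up 32.8%, 15.9%, 15.4% and 64.4%. The exact 95% interval of combination 4, 52.3% to 75.3%, did not meet those of combination 1, 2 or 3, of which the highest upper bound was 45.4%. Combination 4 held 47 Gzma reads and 26 Gzmb reads, whereas combination 2 held 13 and 69. The intervals cover counting error only, and a share of reads is not a share per transcript length.

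Granzyme K did not separate the groups. Gzmk lies on chr13:113171608-113225908, minus strand, and its span contains Esm1, an endothelial gene on the opposite strand, with 8440 bases in common. The library kit does not mark strand, so reads of the 2 genes in the shared stretch may not be told apart. Means were 0.0101, 0.00954, 0.0115 and 0.0239 TPM in control, anti-PD1, vorinostat and combination, with 5 libraries at 0. The highest library was combination 2, at 0.0525 TPM and 29 reads. The average anti-PD1 change was 0.01 (95% interval -0.02 to 0.03, adjusted p = 0.721 by limma). Mean Esm1 was 2.95, 1.52, 2.17 and 4.20 TPM in the same order. In the 5 libraries at 0 for Gzmk, Esm1 was at 4.26 TPM (control 3), 1.73 (anti-PD1 3), 0.57 (anti-PD1 4), 0.145 (vorinostat 1) and 3.51 (vorinostat 3). In combination 2 it was at 1.32 TPM. The part of Esm1 in the Gzmk values was not tested.

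**Figure D2:**
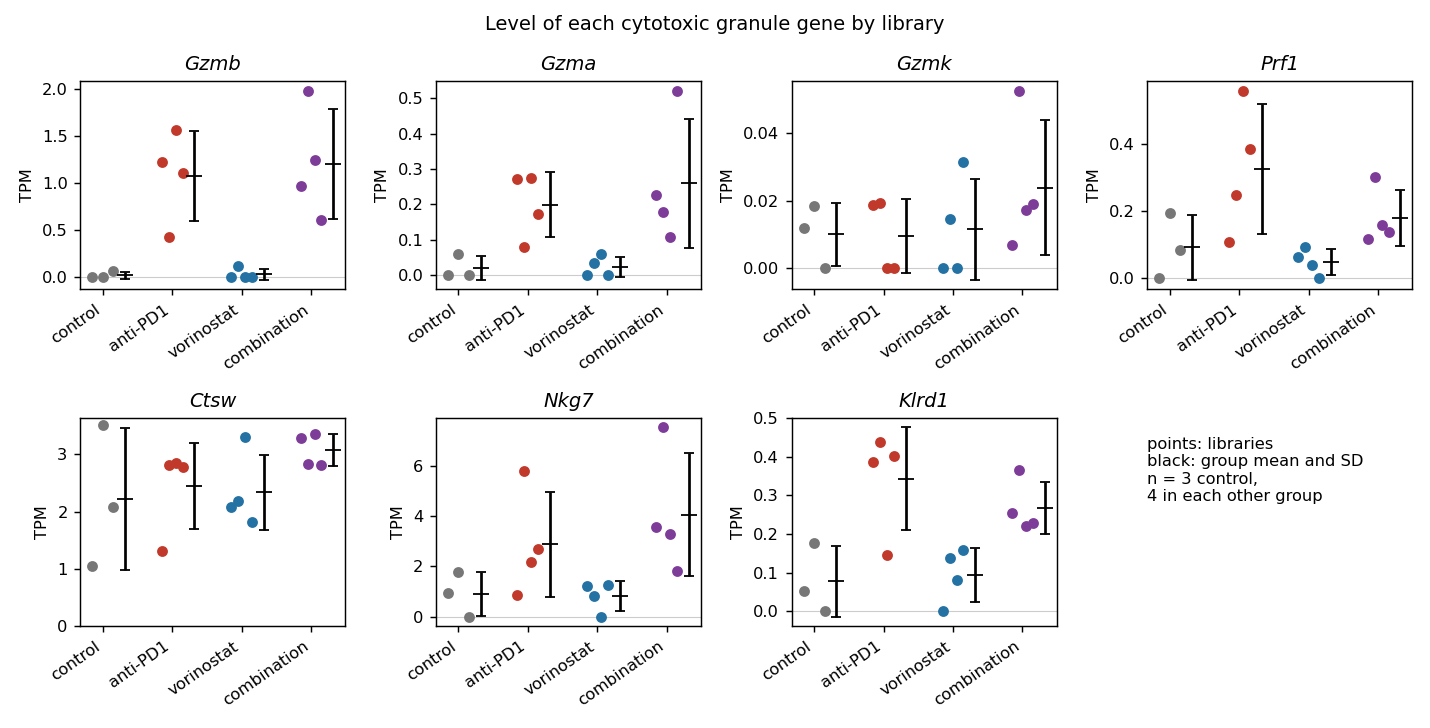
TPM of each gene by library (points) with the group mean and SD (black; n = 3 control, 4 in each other group), each panel on its own linear axis. Gzmb and Gzma lie near 0 without anti-PD1, while the Ctsw groups overlap, with means of 2.22 to 3.07 TPM.

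Perforin levels with and without anti-PD1 overlapped. Prf1 lies on chr10:61297833-61304680, plus strand. Controls were at 0, 0.194 and 0.0837 TPM, and anti-PD1 libraries at 0.109, 0.248, 0.559 and 0.385 TPM. With vorinostat it was at 0.0630, 0.0929, 0.0407 and 0 TPM, and with the combination at 0.119, 0.302, 0.158 and 0.139 TPM. Of the 8 libraries with anti-PD1, control 2 lay above anti-PD1 1 and combination 1, 3 and 4. All 4 combination libraries lay above all 4 vorinostat libraries. The average anti-PD1 change was 0.22 (SE 0.07, adjusted p = 0.180 by limma).

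Reads of Prf1 were fewer in the combination than with anti-PD1 alone, unlike those of the granzymes. There were 58 against 104 reads, a ratio of 0.508 per read sequenced (0.362 to 0.707, counting error only). Across libraries the groups overlapped, and limma gave a change of -0.16 (95% interval -0.36 to 0.04, adjusted p = 0.415). The corresponding read ratio for Gzmb was 1.05 (0.851 to 1.30). Klrd1 also had fewer reads in the combination, 90 against 111, a ratio of 0.739 (0.553 to 0.984, counting error only). Its groups overlapped too, with a limma change of -0.08 (95% interval -0.25 to 0.09).

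On log2(TPM + 1), Nkg7 had the largest fitted change of the 7 genes in the average anti-PD1 effect, and the largest standard error. This scale understates the changes of lower genes. With voom the average change was 3.16 for Nkg7, below 5.70 for Gzmb and 3.92 for Gzma. Nkg7 lies on chr7:43437073-43438249, plus strand. Controls were at 0.948, 1.76 and 0 TPM, and anti-PD1 libraries at 0.868, 5.77, 2.17 and 2.69 TPM. The vorinostat libraries were at 1.22, 0.810, 0 and 1.26 TPM, and with the combination at 3.57, 7.52, 3.29 and 1.82 TPM. The combination libraries lay above all controls, although combination 4 exceeded control 2 by little. The average anti-PD1 change was 1.21 (SE 0.34, adjusted p = 0.146 by limma). The same-numbered libraries anti-PD1 2 and combination 2 were the highest of their groups.

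Klrd1 was higher in the anti-PD1 and combination groups on average. It lies on chr6:129591782-129598775, plus strand. Controls were at 0.0532, 0.178 and 0 TPM, and anti-PD1 libraries at 0.385, 0.439, 0.146 and 0.402 TPM. With vorinostat it was at 0, 0.136, 0.0797 and 0.159 TPM, and with the combination at 0.253, 0.366, 0.221 and 0.227 TPM. The combination libraries lay above all controls, and only anti-PD1 3 fell within the range of the groups without anti-PD1. The average change was 0.26 (SE 0.06, adjusted p = 0.0815 by limma). With single libraries left out, the adjusted p lay between 0.0331 and 0.194. It did not pass in 14 of these 15 fits. The 1 that passed left out anti-PD1 3, the library just named, with a change of 0.30.

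Cathepsin W was present in every library and overlapped between all groups. Ctsw lies on chr19:5465043-5468507, minus strand, and shares 9 bases with Fibp. It was at 1.05, 3.52 and 2.09 TPM in controls and at 1.31, 2.82, 2.85 and 2.79 TPM with anti-PD1. Vorinostat libraries were at 2.07, 2.18, 3.30 and 1.82 TPM. The combination libraries were the most alike, at 3.28, 2.84, 3.35 and 2.82 TPM. The average anti-PD1 change was 0.22 (95% interval -0.16 to 0.60, adjusted p = 0.559 by limma). Of the 7 genes it alone had at least 1 TPM in all 15 libraries.

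Each treatment was also read against control. With anti-PD1, 1 of 7 was called (Gzmb) and 2 of 7, Gzmb and Gzma, did not overlap with control, against 5.67% of all symbols. The median change of the 7 was 0.27, beside -0.01 over all symbols. On recovered reads, limma's voom also called Gzmb alone, at an adjusted p of 0.0205, where 0.372% of symbols were called higher.

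With the combination, 4 of 7 genes (Gzmb, Gzma, Nkg7 and Klrd1) lay above every control, against 2.72% of all symbols. None of the 7 passed limma at an adjusted p of 0.05 in a comparison that called 0.0105% of symbols higher, and 4 had an unadjusted p under 0.05, as did 5.63% of all symbols. Gzmb had a change of 1.07 (95% interval 0.63 to 1.51, adjusted p = 0.152). With a pseudocount of 0.1 its adjusted p was 0.0372, and on recovered reads with voom it was 0.0246, where 0.0444% of symbols were called higher. This comparison and anti-PD1 against control share the same 3 controls.

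With vorinostat alone, the 7 genes overlapped with control in level. None of the 7 passed limma and voom called none, in a comparison with 0.0105% of symbols called in either direction. None had an unadjusted p under 0.05, beside 1344 of all 38172 symbols. The Gzmb change was 0.01 (95% interval -0.43 to 0.45), that of Prf1 -0.06 (-0.27 to 0.16) and that of Nkg7 -0.01 (-1.09 to 1.06). The Nkg7 interval spans a wide range, so a moderate change in it cannot be told from none here.

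Adding vorinostat to anti-PD1 gave no call among the 7 genes. Between the combination and anti-PD1 alone, 0.0367% of symbols were called in either direction by limma. None of the 7 had an unadjusted p under 0.05, beside 5940 of all 38172 symbols. The Gzmb difference was 0.08 (95% interval -0.33 to 0.48), and the Nkg7 difference 0.42 (-0.57 to 1.41). The interaction, which asks whether the anti-PD1 effect differs with vorinostat, was 0.07 for Gzmb (-0.53 to 0.66). It called 0.0236% of symbols and none of the 7, and none had an unadjusted p under 0.05, beside 4390 of all 38172 symbols. Voom called none of the 7 in either test.

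**Figure D3:**
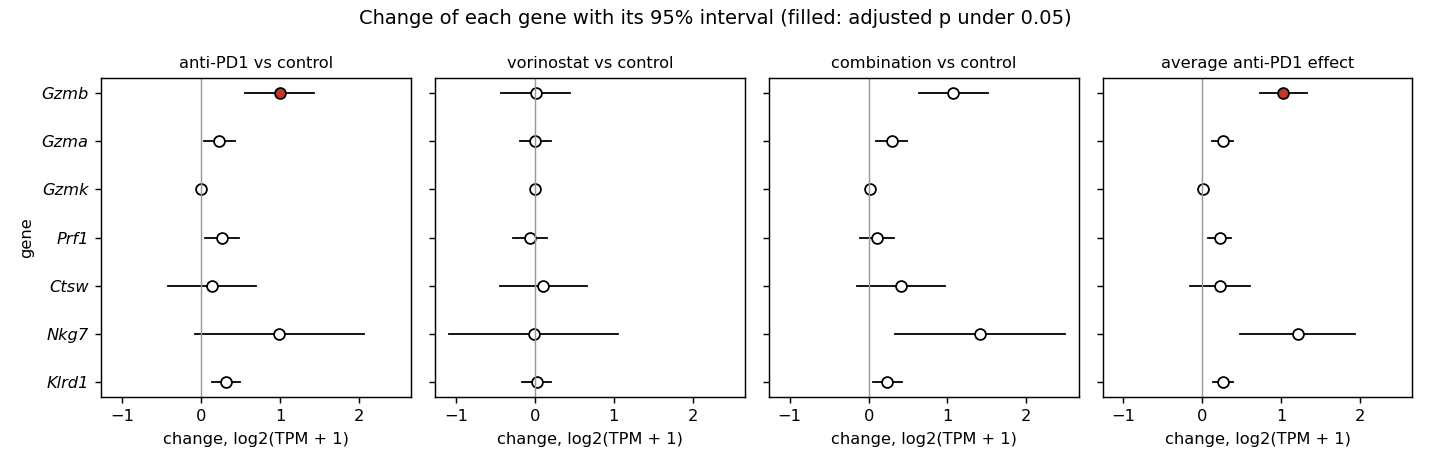
Change of each gene on log2(TPM + 1) with its 95% interval from limma, for 4 comparisons; filled points have an adjusted p under 0.05. Gzmb is filled with anti-PD1 against control (1.00) and in the average anti-PD1 effect (1.03), while all vorinostat intervals span 0.

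Among the other granzymes, only Gzmm was present throughout. Gzmm, granzyme M, is typical of NK cells, and it averaged 1.39, 1.41, 1.13 and 1.23 TPM in control, anti-PD1, vorinostat and combination. Its average anti-PD1 change was 0.04 (SE 0.08, adjusted p = 0.808 by limma). Gzmc, Gzmd and Gzmf were at 0 in every control and anti-PD1 library and reached at most 0.184 TPM elsewhere. These genes are close copies of Gzmb in the same cluster, so reads shared between them could be split by the counting. None of the 4 measured granzymes of this list passed. None had an unadjusted p under 0.05, beside 14.8% of all symbols in the average anti-PD1 effect.

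Genes that load and release granules gave no call in the average anti-PD1 effect, with 0 of 11 called by limma or voom. At an unadjusted p under 0.05 in limma were 4, 3 of them with a positive change, beside 14.8% of all symbols. Stxbp2, a docking protein for granule fusion, averaged 6.20, 15.8, 9.14 and 10.2 TPM in control, anti-PD1, vorinostat and combination (change 0.69, SE 0.18, adjusted p = 0.128). Srgn, the proteoglycan that packs granzymes, averaged 3.33, 4.29, 3.49 and 6.13 TPM (change 0.48, SE 0.12, adjusted p = 0.118). For Unc13d, which primes granules for fusion, the average change was 0.22 (SE 0.07, adjusted p = 0.200). Lamp1, a lysosomal membrane protein exposed on granule release, was at -0.21 (adjusted p = 0.305). With anti-PD1 against control it was at -0.44 (adjusted p = 0.1003 by limma), and voom called it lower at 0.0498. In that voom test 408 of 36035 symbols were called in either direction. The median of the 11 in the average effect was 0.01.

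Of 5 listed inhibitors of granzymes, 1 had a positive change with anti-PD1 against control, and 1, Serpinb9b, was called lower. Serpinb9b averaged 0.296 ± 0.0340 TPM (SD, n = 3) in controls and 0.0220 ± 0.0441 TPM (SD, n = 4) with anti-PD1. It averaged 0.1925 ± 0.1197 TPM with vorinostat and 0.112 ± 0.0420 TPM with the combination (SD, n = 4 each). With anti-PD1 against control it fell by 0.34 (SE 0.07, adjusted p = 0.0397 by limma), where 0.498% of all symbols were called lower. Of the other inhibitors, Serpinb6a was at -0.22, Serpinb6b at -0.21, Serpina3n at -0.86 and Serpinb9 at 0.14 there, none of which passed. The average anti-PD1 change of Serpinb9b was -0.22 (adjusted p = 0.0739 by limma), which did not pass. For Serpinb9, a known granzyme B inhibitor, the average change came to 0.19 (SE 0.14, adjusted p = 0.542).

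Among the 9 NK receptor genes, 1 was called, and it encodes a partner of CD94. Klrc1 encodes NKG2A, which pairs with the Klrd1 product to form an inhibitory receptor. It had no read in any control and was at 0.537, 0.262, 0.361 and 0.590 TPM with anti-PD1. The vorinostat libraries were at 0, 0.160, 0.0645 and 0.131 TPM, and with the combination at 0.393, 0.425, 0.639 and 0.337 TPM. Klrc1 rose by 0.46 in the average anti-PD1 effect (SE 0.06, adjusted p = 0.0122 by limma), where 0.0812% of all symbols were called higher. With anti-PD1 against control it rose by 0.52 (SE 0.09, adjusted p = 0.0257 by limma), where 0.288% were called higher. Klrc1 and Klrc2 are close copies, so their reads may be shared.

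Of the 9 receptor genes, 6 had an unadjusted p under 0.05 in the average anti-PD1 effect (14.8% of all symbols did), 5 of them with a positive change. Besides Klrc1 these were Il2rb, a subunit of the interleukin receptors of NK and T cells (0.43, adjusted p = 0.0918), Klrk1 (0.17, adjusted p = 0.150), Klrc2 (0.10, adjusted p = 0.220) and Klre1 (0.16, adjusted p = 0.247). The sixth was Klrb1c, the NK1.1 gene, at -0.21 (adjusted p = 0.221). Klrb1c averaged 0.508 ± 0.251 TPM (SD, n = 3) in controls and 0.121 ± 0.0559 TPM (SD, n = 4) with anti-PD1. Ncr1, a defining NK gene, had an average change of 0.11 (adjusted p = 0.390), at most 26 reads in any library and none in anti-PD1 4 or combination 4, which held 43 and 26 Gzmb reads. The summed level of the 9 receptors ran from 0.572 to 1.48 TPM in controls, 1.26 to 2.27 with anti-PD1, 0.879 to 1.20 with vorinostat and 1.92 to 2.74 with the combination. Its part in the change of Gzmb was not tested.

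T cell genes had positive changes that did not pass the test. In the average anti-PD1 effect, 0 of 18 T cell genes were called by limma or voom, 14 had an unadjusted p under 0.05, beside 14.8% of all symbols, and all 18 had a positive change. Their median was 0.34, beside -0.01 over all symbols. Cd8a, which marks CD8 T cells, averaged 0.0846, 1.28, 0.254 and 1.72 TPM in control, anti-PD1, vorinostat and combination (change 1.03, SE 0.22, adjusted p = 0.0777). With anti-PD1 against control, limma gave Cd8a an adjusted p of 0.103, and voom called it at 0.0482. Cd3g, a chain of the T cell receptor complex, had a change of 0.47 (adjusted p = 0.0600), and Lat, an adaptor of its signalling, one of 0.42 (adjusted p = 0.0839).

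By library, the order of Cd8a and Gzmb agreed in 5 of the 6 pairs of combination libraries and in 3 of the 6 pairs of anti-PD1 libraries. Combination 2 and 3, with 2.77 and 2.86 TPM of Cd8a, were also the highest for Gzmb in their group, and combination 1 and 4, with 0.668 and 0.567 TPM, the lowest. Control 3 was the one control with reads of either gene. In anti-PD1 4, Cd8a reached 2.14 TPM with 1.10 TPM of Gzmb, while anti-PD1 3 had 1.20 TPM of Cd8a with 1.57 TPM of Gzmb. Vorinostat 4 had 0.515 TPM of Cd8a from 40 reads and no Gzmb read. No T cell gene of the list was at 0 throughout any group. The sum of 17 T cell genes, without Thy1, which neurons also express, ran from 7.23 to 9.81 TPM in controls and 5.18 to 11.98 TPM with vorinostat. It reached 25.8 TPM with anti-PD1, where the lowest library lay just above the highest vorinostat library, and ran from 14.1 to 25.0 TPM with the combination. The part of T cell number in the change of Gzmb was not tested.

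**Figure D4:**
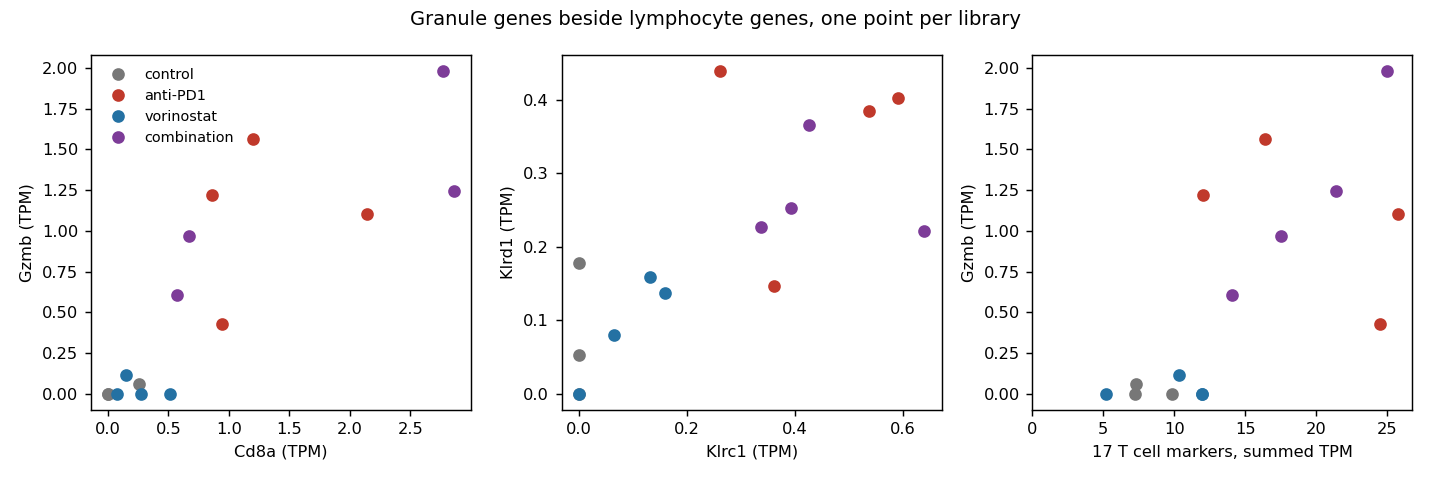
Gzmb against Cd8a, Klrd1 against Klrc1, and Gzmb against the summed TPM of 17 T cell genes, 1 point per library, coloured by group. All libraries with anti-PD1 lie at 0.425 TPM of Gzmb or more, and vorinostat 4 has 0.515 TPM of Cd8a with no Gzmb.

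Genes for other effector functions also gave no call. Of 9 death ligands and cytokines, 0 were called by limma or voom in the average effect. An unadjusted p under 0.05 in limma was found for 5, 4 with a positive change, beside 14.8% of all symbols. Ccl5, a chemokine stored by memory T cells, averaged 1.85, 3.15, 1.75 and 4.46 TPM in control, anti-PD1, vorinostat and combination (change 0.79, SE 0.18, adjusted p = 0.102). The change of Fasl, the death ligand of cytotoxic cells, was 0.25 (SE 0.07, adjusted p = 0.150), and that of Tnfsf10, which encodes TRAIL, was 0.29 (adjusted p = 0.312). Ccl3, a chemokine also made by myeloid cells, had a negative change of -0.82 (SE 0.36, adjusted p = 0.315), with means of 15.9, 4.81, 11.3 and 13.1 TPM in the same order. Of 7 transcription factors of cytotoxic cells, 0 were called by limma or voom and none had an unadjusted p under 0.05. The change of Tbx21, the T-bet gene, was 0.09 (SE 0.06, adjusted p = 0.475), that of Runx3 was 0.04 (adjusted p = 0.447) and that of Zeb2 was -0.25 (adjusted p = 0.338).

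**Figure D5:**
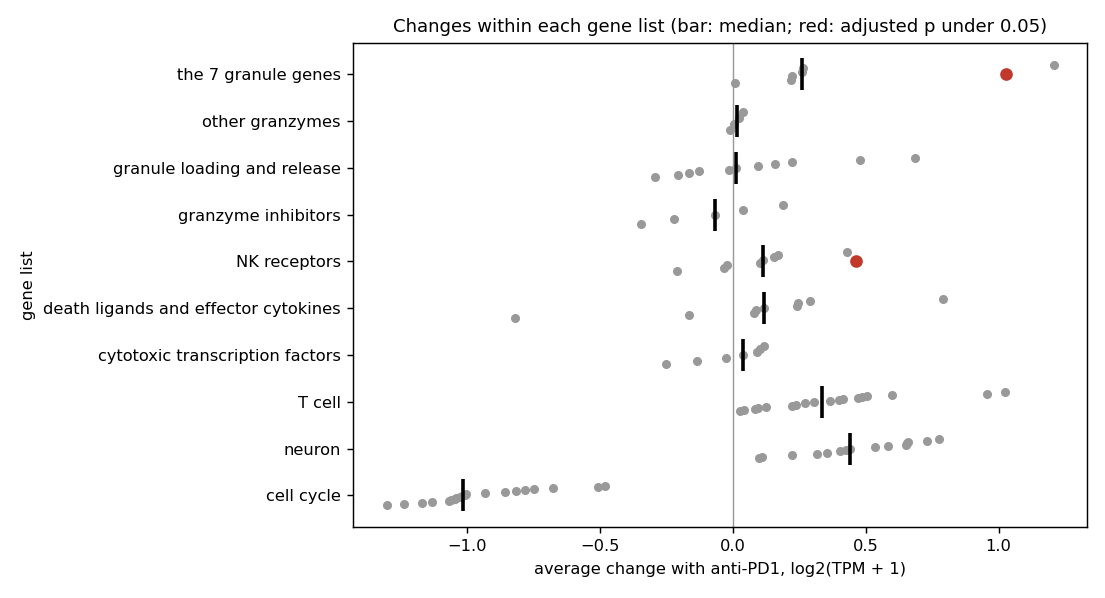
Average anti-PD1 change of each gene on log2(TPM + 1), by list, with the list median as a bar and genes of adjusted p under 0.05 in red. Gzmb and Klrc1 are the genes in red, and the T cell median is 0.34.

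Markers of other cells that can express granzymes or differ in amount were set beside these results. Granzyme B is also known in plasmacytoid dendritic cells, whose 8 genes had a summed level of 41.1 to 53.8 TPM in controls and 42.9 to 96.4 TPM with anti-PD1, with 0 of 8 called. Mast cell and basophil genes ran from 3.50 to 7.14 TPM in controls and from 3.44 to 7.67 TPM with anti-PD1, with 0 of 10 called. Neutrophil genes ran from 2.14 to 4.04 TPM in controls and from 5.19 to 174.5 TPM with anti-PD1, with 0 of 10 called. B and plasma cell genes ran from 31.6 to 211 TPM in controls, 230.5 to 978 TPM with anti-PD1, 90.6 to 133 TPM with vorinostat and 35.8 to 977 TPM with the combination, with 0 of 8 called. Most of that sum was Igkc, an antibody light chain gene, which averaged 77.2, 456, 89.1 and 532 TPM. Neuronal genes ran from 787 to 1280 TPM in controls and from 1312 to 2726 TPM with anti-PD1, with 1 of 15 called. That gene was Gad1, which was higher, as were 0.288% of all symbols called in that comparison. Cell cycle genes ran from 1137 to 1393 TPM in controls and from 259 to 684 TPM with anti-PD1, with 0 of 20 called and 20 at an unadjusted p under 0.05, beside 21.8% of all symbols. In the combination the neuronal sum ran from 934 to 1544 TPM and the cell cycle sum from 346 to 1244 TPM. These calls are for anti-PD1 against control, where 1 neutrophil gene, 2 B and plasma cell genes, 7 neuronal genes and none of the dendritic or mast cell genes had an unadjusted p under 0.05, and voom called Gad1 alone among these 6 lists. The part of any of these in the granule gene values was not tested, apart from the fit with the neuronal mean given above.

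The genes whose order over the 15 libraries was most like that of Gzmb were Lzts2, Gvin3, Fam216a, H2-M3 and Repin1. Of the 105 pairs of libraries, 87 were in the same order for Lzts2, 85 for Gvin3 and 84 for each of the other three, against a median of 46 over the 17647 symbols compared, which averaged at least 1 TPM. Gzmb itself was tied in 10 pairs. Within groups, Lzts2, Gvin3 and Fam216a had 15 of 21 pairs in the same order and H2-M3 and Repin1 13. H2-M3, a non-classical MHC class I gene, averaged 5.96, 9.73, 6.38 and 8.64 TPM in control, anti-PD1, vorinostat and combination. Gvin3, an interferon-inducible GTPase gene, averaged 2.23, 4.51, 1.82 and 3.86 TPM.

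Among the 7 genes themselves, Nkg7 and Klrd1 shared their order most, in 81 of 105 pairs and 17 of 21 pairs within groups. Gzmb and Prf1 shared 78 of 105 and 13 of 21. Gzma and Gzmb shared 75 of 105 pairs, but only 9 of the 21 within groups, with 7 opposite. Gzmb and Klrd1 shared 67 of 105 and 6 of 21, with 11 opposite.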

How the data were processed

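RNA-seq of 15 mouse brain tumour samples was used. The authors deposited TPM, in 1 table of 38172 symbols labelled "adj", a term that no source used here explains. FastQC, HISAT2, StringTie and DESeq2 with build mm10 were used, per the submitters' processing notes, with no versions. Gene spans came from GENCODE vM21, and 1 factor per library was estimated from the TPM. With these, TPM came out as whole reads (within 0.01 reads) for 36035 of 36477 matched symbols (98.8%). Whether a read is a single read or a pair is not known. All 15 columns were used.

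Tests used limma 3.58.1 in R 4.3.3 on log2(TPM + 1), with a mean per group, all 15 libraries in 1 fit, a trend in eBayes and Benjamini-Hochberg adjustment over all symbols at 0.05. The fit was also run on simulated reads, for anti-PD1 against control only. The genes changed there were drawn above a read level that Gzma, Gzmk, Prf1 and Klrd1 do not reach. It therefore covers neither these genes nor the average effect. The average anti-PD1 effect is the mean of its effect without and with vorinostat, and the interaction is their difference. Read ratios and shares have exact 95% intervals (Clopper-Pearson), computed with scipy. Alternatives were a pseudocount of 0.1, filters on low values, median-of-ratios scaling, the groups alone, a replicate block, voom on recovered reads, the neuronal mean as covariate and leaving out each library. Deviations of same-numbered replicates correlated above a cutoff of 0.1 in every pair only between anti-PD1 and combination (0.22 to 0.66). They were positive but lower between control and anti-PD1 (0.04 to 0.33) and between control and vorinostat (0.04 to 0.50).

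The text names all 7 members, from each other list the genes called in the average anti-PD1 effect or else the 3 of smallest p, and the 5 genes most like Gzmb. Klrb1c, Ncr1, Il2rb, Klrk1, Klrc2, Klre1, Lamp1, Ccl3, the other serpins, Olig2, Esm1 and the sum without Thy1 were chosen after their values were seen. The members and lists were chosen with earlier results of these data known. Myeloid and glioma lists had no gene called in the average effect, by limma or voom. There 1 myeloid gene and no glioma gene had an unadjusted p under 0.05 in limma, beside 14.8% of all symbols.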

Additional observations from a re-analysis of the deposited data

Results flagged for a closer look

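Ctsw in anti-PD1 1 was at 1.31 TPM, far from the other anti-PD1 libraries, of which the nearest was at 2.79 TPM. In 21 sets of 4 libraries examined, chance alone would mark about 1 in 20. Gzmb in vorinostat 2 was at 0.116 TPM, from 5 reads, and the other vorinostat libraries had no read. With the others tied at 0, any reads in that library would set it apart, so this is no sign of an unusual library.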

How the results depend on the processing

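Of 928 recomputed changes of single genes, 864 kept direction and side of the threshold, 44 reversed, and the cause was not tested. The number of the 7 genes called with anti-PD1 against control was 1 and became 0 with the groups alone and with the neuronal covariate, and lay between 0 and 2 with single libraries left out. With the combination it was 0 and became 1 with a pseudocount of 0.1 and with voom. In the average anti-PD1 effect it was 1, became 2 with voom, and lay between 1 and 2 with single libraries left out. With the replicate block the adjusted p of Gzmb against control was 0.0517 and that of Klrd1 0.0483, and no count of calls changed. Between control and anti-PD1 the replicate correlations ran from 0.04 to 0.33, so whether the numbers pair there is not settled. In combination against anti-PD1, where every pair passed the cutoff of 0.1, the block gave 0 calls, as without it. The filter of 1 TPM in 3 libraries keeps 3 of the 7 genes, and Gzmb only through libraries with anti-PD1.

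Against vorinostat effects of about 0, these reversed: Nkg7 (0.13 with pseudocount 0.1, 0.019 with median-of-ratios scaling, 0.016 with the block, 0.73 with voom), Gzma (-0.019, block), Gzmb (-0.038, voom) and Gzmk (-0.17, voom, and -0.0025, neuronal covariate). Gzmk became 0.0016 with anti-PD1 against control under median-of-ratios scaling and -0.0046 in the average effect with the neuronal covariate. Gzma became -0.014 in combination against anti-PD1 with that covariate. In the interaction, Gzma became -0.15 and Nkg7 -0.22 with voom, and Gzma -0.035 and Ctsw -0.15 with the covariate.

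With single libraries left out, these ranges span 0. For anti-PD1 against control they were -0.15 to 0.42 for Ctsw and -0.0080 to 0.0050 for Gzmk. For vorinostat against control they were -0.18 to 0.39 for Ctsw, -0.011 to 0.032 for Gzma, -0.028 to 0.040 for Gzmb, -0.0075 to 0.0078 for Gzmk, -0.028 to 0.090 for Klrd1, -0.42 to 0.31 for Nkg7 and -0.12 to 0.010 for Prf1. For combination against anti-PD1 they were -0.032 to 0.12 for Gzma and -0.094 to 0.22 for Gzmb. For the interaction they were -0.12 to 0.45 for Ctsw, -0.037 to 0.12 for Gzma and -0.10 to 0.21 for Gzmb. All 7 genes except Ctsw had no read in 2 to 5 libraries, and the part of sequencing depth in this was not tested.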
